A study of Rattus norvegicus with 92 samples.

Results

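A set of 157 transcripts whose level was higher in the liver of rats that had inhaled acrolein was followed into 7 other tissues of the same study. Of the 20508 rows in each table, 152 members were listed by a transcript identifier and 5 by a gene identifier. The members were selected on measured values: in CPM (each value over its column's sum, times 1000000), the lowest of the 6 acrolein livers had to lie above the highest of the 5 air livers, the acrolein liver mean had to reach 2 CPM, and the tissue with the highest air mean had to be under 5 times the second highest of the 8 tissues. The higher level in liver is therefore a property of the choice, and no test of it is given. Liver groups did not overlap in this direction for 211 rows (1.03% of all rows), of which 39 were too low in acrolein livers and 15 too restricted to 1 tissue, 8 of them adrenal and 4 liver.

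Male Wistar-Kyoto rats of 12 to 13 weeks breathed, through the nose only, filtered air (0 ppm) or acrolein for 4 h. Acrolein rose in steps only at the start and was 3.16 ppm for the rest of the exposure. Tissue was taken directly afterwards. Messenger RNA was sequenced from 92 samples of liver, nasal epithelium, lung, adrenal, adipose, muscle, hippocampus and hypothalamus, with 4 to 8 samples in each group. All rats were males of 1 inbred strain and carried no other treatment or allele per the labels. The values are read counts divided by a size factor, made separately for each tissue. Between 2513375 and 30194066 reads were recovered per sample. The number 8 was shared by 2 adipose air samples. They were averaged into 1 for differences and tests, and kept as 2 for levels in air and read depth.

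Acrolein is a reactive aldehyde of smoke that binds thiol groups and irritates sensory nerve endings of the airway. Inhaled irritants of this kind activate the sympathetic nerves and the hypothalamus, pituitary and adrenal axis, so that adrenaline and corticosterone reach organs the gas itself does not. Liver and adipose respond to these hormones by releasing glucose and fatty acids. Following liver members elsewhere asks whether the same transcripts also differed at the site of contact (nose, lung), in the gland of the axis (adrenal), in the organs it acts on (adipose, muscle) and in the brain. Identifiers could not be paired with gene symbols, so no member is given a function, marker lists of the tissues were not checked, and at most 2 identifiers in each direction are printed.

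Rows restricted to other tissues were not at the same level in all livers, and this touches the choice of members. Whether such reads came from carried-over RNA or from expression within liver was not tested. From rows restricted to adrenal (16 rows), the adrenal share was 37.7 to 99.99 ppm of the adrenal level in air livers and 511 to 3298 in acrolein livers. From 20 lung rows, the lung share was 37.0 to 11500 ppm of the lung level in air livers, highest in replicate 5, and 737 to 3165 in acrolein livers. The adrenal shares of the 2 groups did not overlap, whereas the lung shares did. Taken as carried-over RNA and multiplied by each member's level in the other tissue, the share of any 1 of adrenal, muscle, nasal epithelium, lung or adipose came to at most 8.78% of any member's value in any acrolein liver, and for the median member to at most 0.702%. In air livers the same product reached 37.4% for 1 member, with the lung share, and at most 3.37% for the median member. These products are for 1 tissue at a time and were not summed. The rule turned on the gap between the liver groups, which for the closest member was 12.4044 against 12.3962 CPM. Whether such shares decided the choice of any member was not tested.

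In liver the members were mostly modest in level and in difference. Their acrolein means ran from 2.06 to 623 CPM with a median of 22.01, and their air means had a median of 13.7 CPM. The fold of the acrolein over the air mean had a median of 1.58, with the middle members between 1.45 and 1.80, and a range of 1.21 to 3.16. At the limits of the rule, the member with the narrowest gap had 12.4044 CPM in its lowest acrolein liver and 12.3962 in its highest air liver, whereas the row just outside had 30.9859 and 30.9904. The lowest acrolein mean inside was 2.06 CPM and the highest just outside 1.92. The largest tissue ratio inside was 4.18 and the smallest outside 5.38.

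The members' level across tissues in air is given as a description only, because the rule used the air livers and its separation favours rows that are low in them. In air samples liver had the lowest CPM of the 8 tissues for 90 members (57.3%), against 33.3% of the 10395 rows that met both level criteria whether separated in liver or not. It was among the 2 lowest tissues for 132 members and the highest for 3. The members' median air level was 57.0 CPM in lung, 52.6 in hypothalamus, 48.8 in hippocampus, 48.6 in adrenal, 44.2 in adipose, 36.4 in nasal epithelium, 21.98 in muscle and 13.7 in liver. The 10395 rows gave 15.9 CPM in liver and 32.8 in lung. For the median member, the middle of the other tissues was 2.84 times the liver level, against 1.67 times over the 10395 rows. Lung was the highest tissue for 53 members (33.8%, against 18.7% of the 10395 rows), hippocampus for 27, adrenal for 26, hypothalamus for 24, adipose for 14, nasal epithelium for 7 and muscle for 3. In bulk tissue, fewer cells of a type and less RNA per cell cannot be told apart, and each table was scaled on its own, so these levels are shares of each tissue's messenger RNA.

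**Figure D1:**
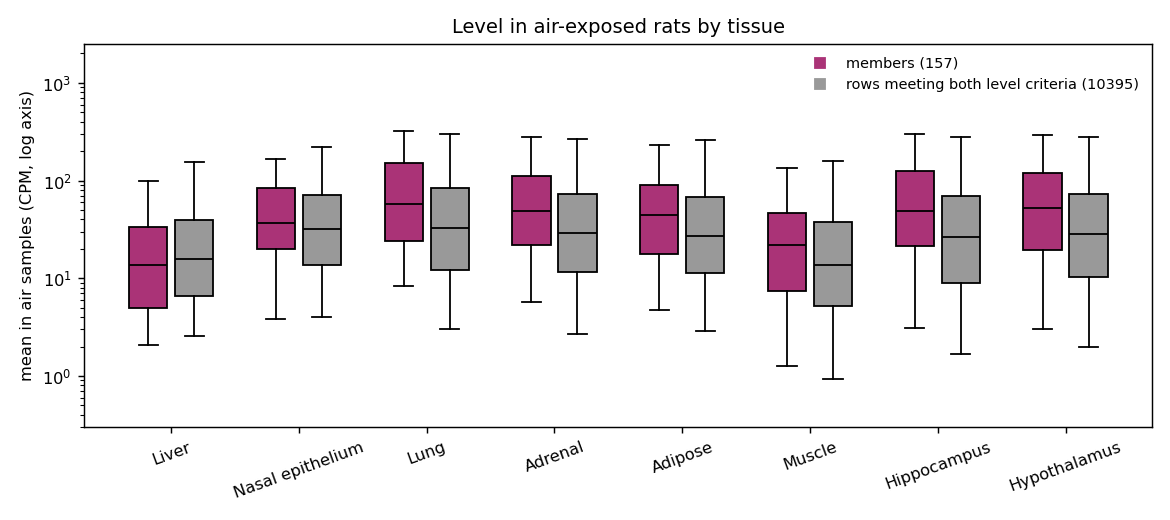
Mean level in air samples (CPM, log axis) in each of the 8 tissues for the 157 members and for the 10395 rows meeting both level criteria, members included. Boxes show the quartiles with the median line and whiskers the 5th and 95th percentiles; the members lie at 13.7 CPM in liver, close to the other rows, and above them in lung at 57.0 CPM.

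All 157 members were above 0 in at least 2 samples of every tissue and so entered each test. With limma on log2(normalized count + 1), adjusted over all rows of a tissue with calls made where the adjusted p was 0.1 or less and the fold over 1.2 in either direction, 0 of 157 members were called in any of the 7 other tissues. Over all rows tested, 0.651% were called in nasal epithelium, 0.00499% in lung and 0% in adrenal, adipose, muscle, hippocampus and hypothalamus, so in 6 tissues almost no row of any kind was called. The smallest adjusted p of any member by limma was 0.231 in nasal epithelium, 0.448 in lung, 0.649 in adrenal and 0.83 to 1.0 in the other 4 tissues. With edgeR on the recovered reads, 0 members were called in each tissue. Over all rows, edgeR called 104 higher and 8 lower in nasal epithelium, 6 higher in lung and 0 elsewhere. DESeq2 called 3 members higher in nasal epithelium, beside 1.66% of the rows it adjusted there, and 0 in each of the other 6 tissues. Among those 6 it called the most rows in lung, with 80 higher and 15 lower. The paragraphs that follow therefore describe differences that did not pass the test across all rows. Members move together, so a count over them is 1 description of a few samples and not 157 pieces of evidence.

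No member was higher with acrolein in all 8 tissues. Counted over the 7 other tissues, 60 members were higher in 3 tissues and 42 in 2, with 2 members (1.27%) in none and 6 in 6. For comparison, 10362 rows met both level criteria and were tested in every tissue. Of these, 2.14% were higher in all 7 and 1.62% lower in all 7, so both counts of members were near a small background. The arrangement in which adrenal and adipose were higher while nasal epithelium, lung, hippocampus and hypothalamus were lower, picked after the signs of the members' medians were seen, held for 71 members (45.2%). It held for 13.4% of rows at the same level criteria. In lung and hypothalamus these signs rested largely on 1 or 2 acrolein samples, as given below. The split of tissues also ran partly with the letter case of the sample labels. All labels began with a capital in nasal epithelium, muscle, hippocampus and hypothalamus. Those of adrenal were in lower case, as were those of adipose apart from 1 air sample numbered 8. Lung labels were mixed. In liver, whose samples chose the members, only air replicates 1 and 2 had capitals, and every acrolein label was in lower case. What the case marks is not given, and its part was not tested. All 4 of the lower tissues were lower for 95 members (60.5%), against 23.6% of rows at the same level criteria. Both adrenal and adipose were higher for 116 (73.9%), against 34.9% of those rows. Signs in different tissues came from separate samples, though the labels do not say whether samples of 1 number came from 1 rat, and within a tissue the members shared the same few samples.

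Rows without the separation in liver leaned the same way. Over the 896 rows that met both level criteria, were not members and had a liver fold of at least 1.45 with overlapping liver groups, the same arrangement held for 43.6%. Of them 88.7% were higher in adipose and 67.7% in adrenal, while 90.0% were lower in hippocampus, 85.5% in lung, 84.5% in hypothalamus and 81.6% in nasal epithelium. Their median log2 difference was 0.30 in adipose, 0.13 in adrenal, -0.03 in muscle, -0.31 in hippocampus, -0.28 in hypothalamus, -0.32 in lung and -0.35 in nasal epithelium. Across the 10362 rows at the same level criteria that were tested in every tissue, Spearman's rho of the liver difference with that elsewhere was 0.61 for adipose, 0.26 for adrenal, 0.15 for muscle, -0.46 for lung, -0.48 for hypothalamus, -0.50 for nasal epithelium and -0.61 for hippocampus. Across the 157 members alone, chosen on their liver values, rho was 0.29 for adipose, -0.21 for adrenal and -0.19 for muscle. It was -0.45 for lung, -0.19 for hypothalamus, -0.39 for nasal epithelium and -0.30 for hippocampus. Rows are not independent and share the samples, so these values describe how the rows of these samples were arranged. The 896 rows and the arrangement were chosen after values were seen.

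**Figure D2:**
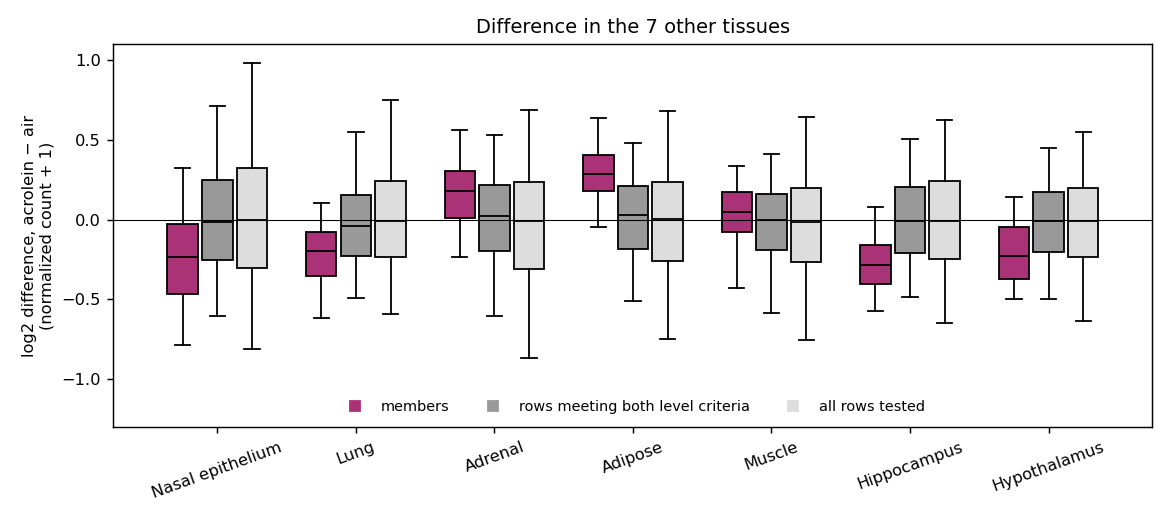
Log2 difference of acrolein minus air in the 7 other tissues for the 157 members, the rows meeting both level criteria and all rows tested. Boxes show the quartiles with the median line and whiskers the 5th and 95th percentiles; the member boxes lie above 0 in adipose (median 0.28) and below 0 in hippocampus (median -0.29), while both other sets centre near 0.

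Nasal epithelium and lung meet the gas first. In nasal epithelium 124 members were lower with acrolein and 33 higher, with a median log2 difference of -0.24 beside -0.02 for rows at the same level criteria and 0.00 for all rows. Per sample, the median over members of the log2 deviation from the air mean ran in the 5 air samples at -0.131, -0.263, 0.327, 0.315 and -0.211, and in the 6 acrolein samples from -0.416 to -0.013 with a median of -0.273. Air replicates 5 and 6 stood above every acrolein sample, and the other 3 air samples lay within the acrolein range. An R follows the number in the labels of air replicates 5 and 6, and also in labels of other samples of both groups. What the R marks is not given, and its part was not tested. Without air replicate 5 or 6 the median difference was -0.15 in each case. At an unadjusted p under 0.05 by limma, 23 members were lower (background 5.37%) and 5 higher (background 6.86%). No member had groups without overlap, where 1.38% of rows did in either direction.

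In lung, 135 members were lower and 22 higher, with a median log2 difference of -0.20 beside -0.04 for rows at the same level criteria. The spread in the acrolein group was wide. Its 6 samples ran from -0.989 to 0.426 with a median of -0.158, whereas the 8 air samples ran from -0.147 to 0.335 with a median of -0.021. Acrolein replicates 13, 14 and 15 lay at -0.633, -0.359 and -0.989, below every air sample. Replicates 14 and 15 are the only lungs whose labels are in capitals. Without both, the median difference was 0.04, with 97 members higher and 60 lower, so the direction turned. Acrolein replicates 9 and 12, at 0.382 and 0.426, lay above every air sample, so the group fell on both sides of air. Without acrolein replicate 15 the median difference was -0.01, with 84 members lower and 73 higher, and without replicate 9 or 12 it was -0.31 in each case. By limma at an unadjusted p under 0.05, 13 members were lower (background 3.29%) and 0 higher (background 4.38%), but edgeR and DESeq2 each gave 6 lower. There 0 members had groups without overlap (background 0.0898%). The acrolein lungs had a median of 1.68 times the reads of the air lungs, and the part of depth in these values was not tested.

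The adrenal gland makes corticosterone in its cortex and adrenaline in its medulla. There 121 members were higher with acrolein and 36 lower, with a median log2 difference of 0.18 beside 0.03 for rows at the same level criteria and -0.01 for all rows. The 4 acrolein samples lay at 0.125, 0.388, 0.0 and 0.206. Air samples (n = 6) ran from -0.336 to 0.189 with a median of 0.042, so acrolein replicates 10 and 12 alone lay above all of them. When each sample was rescaled to the same total, the median of all rows shifted by -0.14 and that of the members fell to 0.03, so the members stayed 0.175 above all rows. Leaving out acrolein replicate 10 or air replicate 2 brought the median difference to 0.11. At an unadjusted p under 0.05 by limma, 10 members were higher (background 3.32%) and 0 lower (background 4.22%). Without overlap, 3 members were higher (background 0.577%) and 1 lower (background 0.737%). Acrolein adrenals had a median of 1.59 times the reads of air adrenals, and the part of depth was not tested.

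Adipose, which stores triglyceride and releases fatty acids under adrenergic drive, held the most one-sided differences above air. Of the members, 148 were higher and 9 lower, with a median log2 difference of 0.28 beside 0.03 for rows at the same level criteria and 0.00 for all rows. In the 4 acrolein samples the median over members was 0.017, 0.216, 0.648 and 0.284. In the 5 air samples it was -0.227, -0.172, 0.246, -0.357 and 0.53. Air replicates 5 and 8 thus lay within the acrolein range and the other 3 below it. Replicate 8 is the mean of 2 samples, 1 of which had the fewest reads of the study. Without it the median difference was 0.43, and it was 0.17 without acrolein replicate 14 and 0.18 without air replicate 7. Limma put 8 members at an unadjusted p under 0.05 that were higher (background 1.21%) and 0 lower (background 1.5%), and 3 members were higher without overlap (background 0.548%). With edgeR 5 members, and with DESeq2 6, were higher at an unadjusted p under 0.05. The acrolein samples had a median of 1.32 times the reads of the 6 air samples, with the 2 numbered 8 counted apart.

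**Figure D3:**
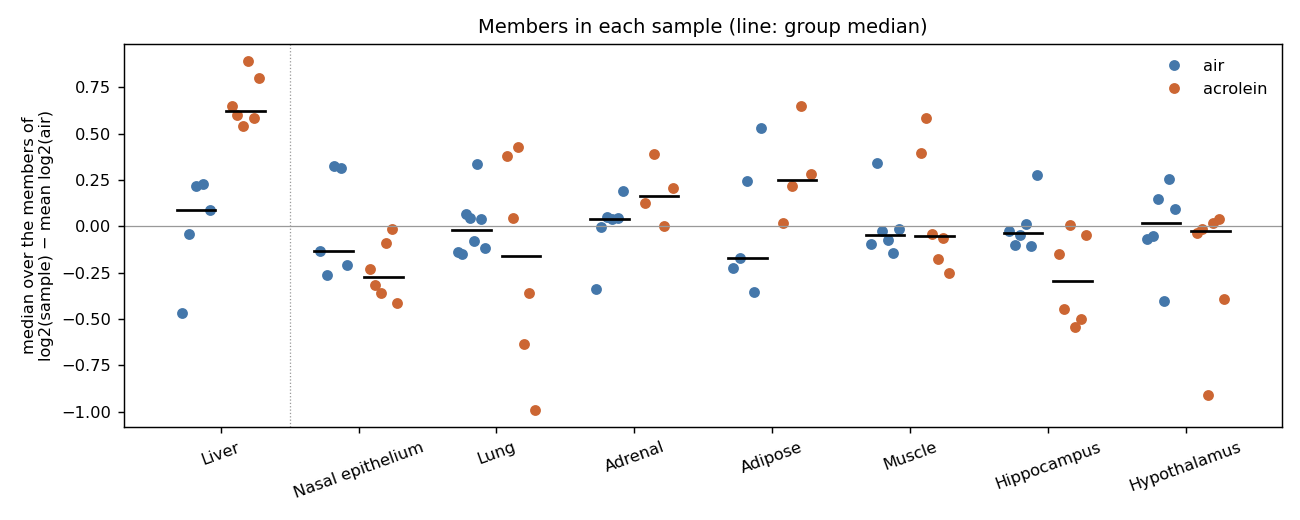
Median over the 157 members of the log2 deviation from the tissue's air mean, 1 point per sample, with group medians as lines. Liver separates by the rule of choice (air at most 0.228, acrolein at least 0.541); in the 7 other tissues the groups overlap, and the acrolein lungs run from -0.989 to 0.426.

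In skeletal muscle, a large user of glucose and fatty acids, 89 members were higher and 68 lower, with a median log2 difference of 0.05 beside 0.00 for rows at the same level criteria. The direction turned to -0.06 after rescaling to the same total, with all rows at -0.11, and to -0.06 or -0.02 without acrolein replicate 10 or 9. Those 2 samples, at 0.584 and 0.395, stood above the other acrolein muscles, whose highest was -0.041, while air muscles (n = 6) ran from -0.143 to 0.34 with a median of -0.048. At an unadjusted p under 0.05 by limma, 0 members were higher (background 1.04%) and 1 lower (background 1.95%; 0 with edgeR or DESeq2), and 0 had groups without overlap (background 0.0781%).

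Hippocampus and hypothalamus govern the stress axis, the hypothalamus by releasing corticotropin-releasing hormone and the hippocampus through feedback from corticosterone. In hippocampus 146 members were lower with acrolein and 11 higher, with a median log2 difference of -0.29 beside -0.01 for rows at the same level criteria. The 6 acrolein samples ran from -0.545 to 0.006 with a median of -0.297, and the 6 air samples from -0.106 to 0.275 with a median of -0.036. Acrolein replicates 10, 12 and 14 lay between -0.545 and -0.447, and replicate 9 at -0.148 also lay below every air sample. Replicates 11 and 15 lay within the air range. No single sample moved the median difference by over 1.5 times, and it stayed between -0.34 and -0.22. At an unadjusted p under 0.05 by limma, 19 members were lower (background 2.16%) and 0 higher (background 2.15%), and 1 was lower without overlap (background 0.035%). With edgeR 8 members, and with DESeq2 13, were lower at an unadjusted p under 0.05.

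In hypothalamus 129 members were lower and 28 higher, with a median log2 difference of -0.23 beside -0.01 for rows at the same level criteria. Here the value rested largely on 1 sample. Acrolein replicate 11 lay at -0.91, replicate 15 at -0.392, and the other 4 acrolein samples between -0.038 and 0.04. Replicate 11 is the only hypothalamus sample whose label has an R after the number. What the R marks is not given, and its part was not tested. The air samples ran from -0.402 to 0.256 with a median of 0.021. Without acrolein replicate 11 the median difference was -0.06, with 98 members lower and 59 higher. By limma, with p unadjusted and under 0.05, 3 members were lower (background 1.72%) and 0 higher (background 0.97%), and 0 had groups without overlap (background 0.0854%).

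Set against the difference between groups, samples of 1 group differed much among themselves. The pooled standard deviation of the median over members within groups was 0.17 in adrenal, 0.20 in hippocampus, 0.23 in nasal epithelium, 0.27 in muscle, 0.31 in hypothalamus, 0.33 in adipose and 0.39 in lung. The median over all rows, which the size factors hold near 0, lay between -0.109 and 0.063 across all samples and tissues.

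How far the members moved together was measured after removing the group means. For each member, its values were correlated over the samples of a tissue with the median of the other members, and every other row with the median of all members. In the 7 other tissues the rule did not use these values. The members' median r was 0.85 in lung (14 samples), 0.82 in adipose (9 samples), 0.75 in hypothalamus, 0.63 in nasal epithelium, 0.62 in muscle, 0.57 in adrenal and 0.55 in hippocampus, and r exceeded 0.7 for 31.2% (adrenal) to 78.3% (lung) of members. In liver, whose samples chose the members, the median r was 0.71. Other rows at the same level criteria had a median r of -0.04 to 0.07 in these tissues, and 6.63% to 19.8% of them exceeded 0.7. Members had higher counts than those rows, which gives less counting noise. Among the rows whose air mean was at or above the members' median, the median r was 0.18 to 0.38 in the 7 other tissues and 11.8% to 30.7% exceeded 0.7, below the members in each. The 896 rows with a liver fold of at least 1.45 but overlapping liver groups followed the members' median with a median r of 0.45 in hippocampus to 0.81 in lung, and 20.1% to 66.8% of them exceeded 0.7, so the shared movement was not limited to the members. In nasal epithelium these rows were above the members, with a median r of 0.67 beside 0.63. There 46.3% of them exceeded 0.7, beside 40.8% of members. All rows share the same samples and depth, and these values describe the samples and carry no test.

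**Figure D4:**
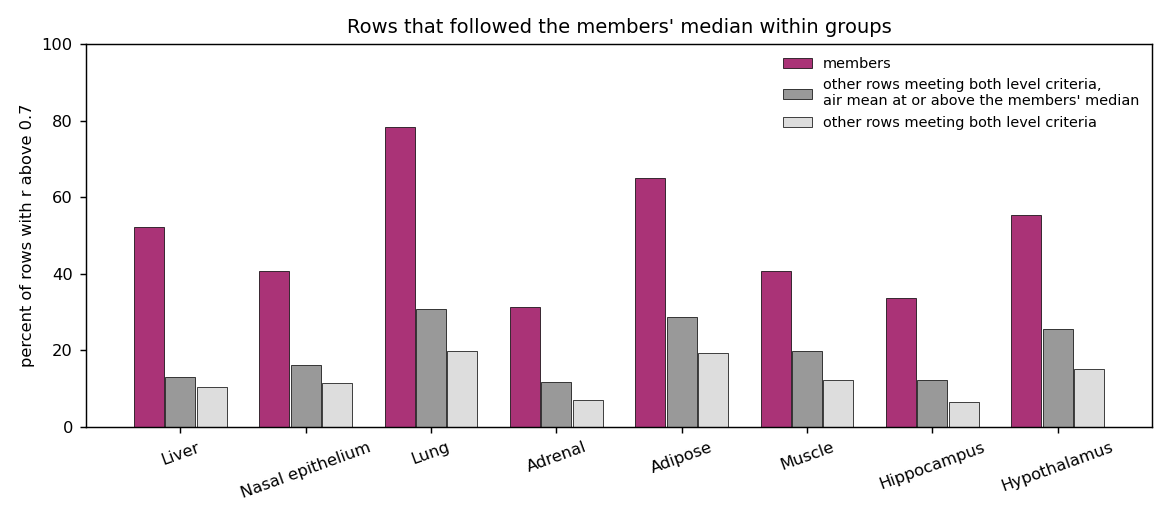
Percent of rows whose group-centred values followed the members' median with r above 0.7, by tissue, for the members (each against the other members), for other rows meeting both level criteria with an air mean at or above the members' median, and for all other rows meeting those criteria. Among the sets shown, the member bars are the highest in every tissue, at 78.3% in lung and 31.2% in adrenal. The liver bars use the samples that chose the members.

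Not all members took part. Of the 157, 117 had r above 0 in all 7 other tissues, 77 exceeded 0.7 in at least 4 of them, 9 in all 7 and 12 in none. The number of members with r below 0 was 2 in lung, 5 each in adipose and hypothalamus, 7 in hippocampus, 15 in nasal epithelium, 16 in adrenal and 17 in muscle.

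Differences in other tissues were also set beside each other across the 157 members, which are not independent. Spearman's rho was highest for hippocampus and hypothalamus at 0.59 and for nasal epithelium and lung at 0.47, while adipose and hippocampus gave -0.22. Over the 10362 rows these were 0.58, 0.50 and -0.49.

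The signs were also counted by the tissue where a member was highest in air. Of the 53 members highest in lung, 47 were higher with acrolein in adrenal, 49 in adipose and 5 in hippocampus. Of the 27 highest in hippocampus, 20 were higher in adrenal, 26 in adipose and 1 in hippocampus, and their median in nasal epithelium was -0.46, against -0.24 for the members highest in lung. Members for which liver was the lowest tissue (90) and the others (67) had medians of 0.30 and 0.26 in adipose and of -0.32 and -0.23 in hippocampus.

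Single members are shown where their groups did not overlap in another tissue. The largest such difference above air was ENSRNOT00000007112 in adipose, with normalized counts of 236.9, 259.7, 337.3, 210.9 and 395.5 in air and 440.8, 441.0, 493.6 and 424.1 in acrolein. Every acrolein sample was above every air sample, and the acrolein samples were close to each other. Its mean was 288 ± 76.4 (SD, n = 5) in air and 449.9 ± 30.2 (SD, n = 4) in acrolein, a log2 difference of 0.68 with a standard error of 0.21 that did not pass limma's test (adjusted p = 0.998). In liver it was 199 ± 51.6 (SD, n = 5) in air and 344 ± 80.2 (SD, n = 6) in acrolein by selection. In air its mean was 315 CPM in lung and 290.1 CPM in hippocampus, far above the 11.98 CPM in liver and 10.8 CPM in muscle, and its log2 difference elsewhere lay between -0.25 in hippocampus and 0.25 in adrenal.

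In adrenal, ENSRNOT00000090576 had 945.6 to 1322 normalized counts in air (median 1178) and 1428, 2271, 1342 and 1727 in acrolein. The lowest acrolein sample was just above the highest air sample. Its means were 1132 ± 153 (SD, n = 6) and 1692 ± 420.0 (SD, n = 4), a log2 difference of 0.56 with a standard error of 0.18 (limma adjusted p = 0.649). In CPM the groups overlapped, since air replicate 2 had 146.5 CPM and acrolein replicate 11 had 127.5. It was most abundant in adrenal, at 112.8 CPM in air against 18.3 in liver.

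2 members were lower without overlap, and neither passed the test. ENSRNOT00000004291 had 84.5 to 113.5 normalized counts in air adrenals (median 99.4) and 81.2, 82.2, 75.1 and 57.2 in acrolein adrenals. The log2 difference was -0.42 with a standard error of 0.21 (limma adjusted p = 0.66), and here too the groups overlapped in CPM, with 7.75 in air replicate 8 and 7.88 in acrolein replicate 9. In liver its 5 air samples ran from 37.8 to 45.3 and its 6 acrolein samples from 59.0 to 84.5, a clear separation by selection. ENSRNOT00000013255 had 1009 to 1450 normalized counts in air hippocampi (median 1049) and 706 to 1007 in acrolein hippocampi (median 880.4), so that the nearest samples almost touched. Its log2 difference was -0.38 with a standard error of 0.15 (limma adjusted p = 0.83), beside 288 ± 58.6 (SD, n = 5) in air livers and 443 ± 98.6 (SD, n = 6) in acrolein livers. In hypothalamus it was also lower, by a log2 difference of -0.30 with a standard error of 0.22, and in adrenal it was higher, at 0.27 with a standard error of 0.16. Neither of these passed the test.

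**Figure D5:**
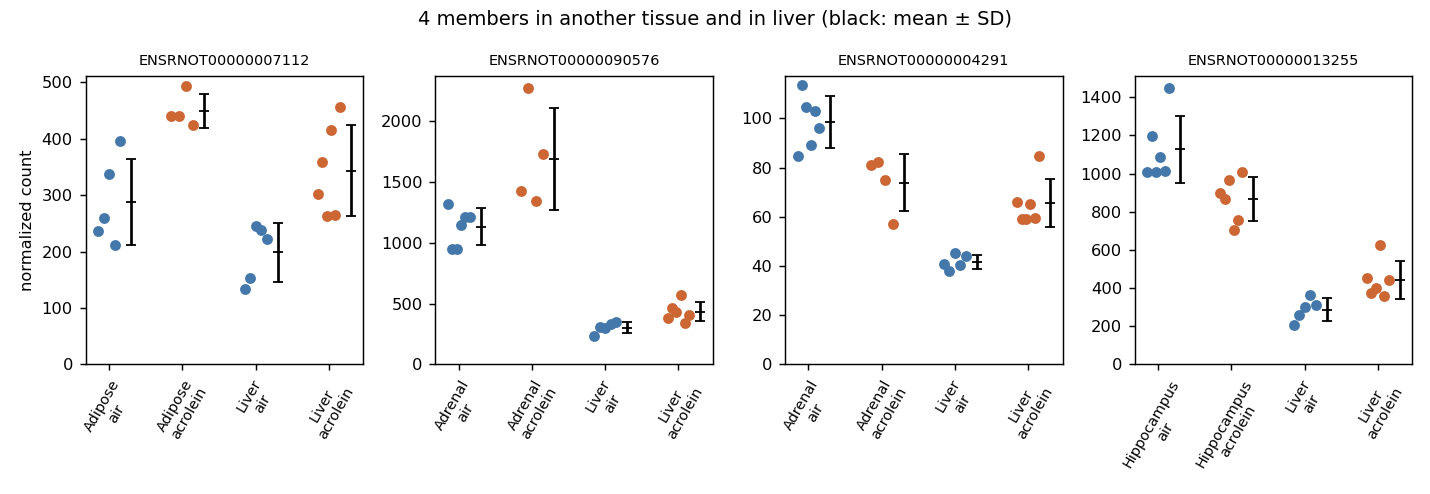
Normalized counts of 4 members in the tissue where their groups did not overlap and in liver, 1 point per sample, with mean ± SD in black. ENSRNOT00000007112 in adipose and ENSRNOT00000090576 in adrenal lie above air with acrolein, whereas ENSRNOT00000004291 in adrenal and ENSRNOT00000013255 in hippocampus lie below it; all 4 lie above air in liver because they were selected for it.

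The list itself depended on single livers. With each liver left out in turn the rule gave 170 to 557 rows, the most without air replicate 5. Leaving out a liver loosens the separation, so nearly all members stay by construction. For the 557 rows the median log2 difference was -0.30 in nasal epithelium, -0.28 in lung, 0.15 in adrenal, 0.27 in adipose, -0.28 in hippocampus and -0.24 in hypothalamus. Without air replicates 1 and 5 and acrolein replicate 14, the livers with the highest muscle and nasal, lung and adrenal shares in turn, 701 rows were chosen, with medians between -0.27 in nasal epithelium and 0.25 in adipose. Air replicates 1 and 2 are the only livers whose labels are in capitals. Without them 244 rows were chosen, and the medians were nearer 0 in lung at -0.11 and in hypothalamus at -0.12. In hippocampus the median was -0.22 and in adipose 0.26.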

How the data were processed

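RNA-seq libraries of 8 rat tissues (92 samples) were analysed from 8 tables. The deposited values are read counts that the authors made in Partek Flow against rn7 and Ensembl transcripts and then divided by DESeq2 size factors (unit: normalized signal), per tissue, in R 4.1.3 per the labels. Such values keep whole reads, and 100% of values came within 1% of a read number. Every high count meets that limit whether whole or not, so the check bears on low counts only. The recovered reads were 2513375 to 30194066 per sample. Columns of every table were mapped to samples by label.

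CPM was each value over its column sum. Limma 3.58.1 (trend) was fitted per tissue to log2(normalized count + 1) over rows above 0 in at least 2 samples, adjusted by Benjamini-Hochberg over all rows. A fold is therefore on the log2(value + 1) scale and understates low rows. The study used DESeq2. EdgeR 4.0.16 (quasi-likelihood) and DESeq2 1.42.0 (R 4.3.3) were run on recovered reads as alternatives, and DESeq2's missing adjusted p stayed missing. Replicate numbers came from the labels, which do not say whether they mark animals, so p-values measure the spread between samples. Adipose air samples sharing number 8 were averaged for differences, tests and correlations, and kept apart for levels in air and read depth. Tissue shares in liver used rows whose mean reached 500 normalized counts in the donor, stayed below a share of 1 in 20 in the remaining tissues and of 1 in 200 in liver, limits taken from earlier work on these data. Rows named were the largest differences above and below air among members without overlap, 2 each. The members and lists were chosen with earlier results of these data known. Gene lists, tissue markers, promoter motifs and sequences were not used here because no table used here pairs these identifiers with symbols. The fits were tested on simulated data.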

Additional observations from a re-analysis of the deposited data

Results flagged for a closer look

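In 32 groups of 4 to 8 samples, the highest or lowest sample was set against its nearest neighbour, and chance alone marks about 1 group in 20. For the median over members, lung air replicate 6 stood apart at 0.335 with the next at 0.064, adrenal air replicate 2 at -0.336 with the next at -0.002, muscle air replicate 4 at 0.34 with the next at -0.012, and hippocampus air replicate 8 at 0.275 with the next at 0.013. For single members in acrolein livers, ENSRNOT00000004291 was high in replicate 16 at 84.53 normalized counts with the next at 65.8, and ENSRNOT00000013255 was high in replicate 14 at 628.4 with the next at 455.2. The last of these livers also had the highest adrenal share, at 3298 ppm of the adrenal level, and the part of that share was not tested.

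The 2 members that were lower without overlap elsewhere had opposite signs in 2 tissues, and neither lower value passed limma's test (adjusted p = 0.66 and 0.83). In normalized counts, ENSRNOT00000004291 was lower in each acrolein adrenal than in any air adrenal, with a log2 difference of -0.42, and higher in each acrolein liver, with 0.63. In CPM its adrenal groups overlapped, with acrolein replicate 9 at 7.88 and air replicate 8 at 7.75. ENSRNOT00000013255 was lower in each acrolein hippocampus, at -0.38, and higher in each acrolein liver, at 0.62. The liver direction is fixed by the choice of members, and the difference between tissues was not tested.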

How the results depend on the processing

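Of 331 alternative values, 328 kept the direction and side of the threshold or moved by less than the spread between samples. The exceptions were members called in nasal epithelium, 0 by limma: 3 with DESeq2, 4 (all higher) without acrolein replicate 11 and 1 (lower) without acrolein replicate 14, a range of 0 to 4 over fits that left out 1 sample. The cause was not tested. DESeq2's 3 stood beside 1.66% of rows, as given above. For the fits that left out 1 sample, the share of all rows called is not given here. Those counts can therefore not be set against a background. With each sample left out, the members' median log2 difference ranged from -0.329 to -0.146 in nasal epithelium, -0.315 to -0.008 in lung, 0.108 to 0.234 in adrenal, 0.168 to 0.431 in adipose, -0.057 to 0.128 in muscle, -0.338 to -0.224 in hippocampus and -0.301 to -0.064 in hypothalamus, and that of the 4 named members kept its sign. In muscle 10 of the 12 fits moved the median by over 1.5 times or turned it, namely those without air replicate 2, 4, 6 or 7 and those without any 1 of the 6 acrolein samples. Muscle was also at -0.005 for both sets of members chosen without liver air replicate 5. Pseudocounts of 0.5 and 5, a mean of at least 10, a liver mean of at least 10 CPM (114 members) and a tissue ratio under 2 (143 members) left every median within 0.03 of its value. With the lower-case lungs alone the lung median turned to 0.039, within the spread between samples. That setting, the choices without liver air replicates 1 and 2 or 5 alone and the count tools for the 4 named members, were added after seeing the data. No paired analysis was possible because air and acrolein samples share no replicate number.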
